A study of Homo sapiens with 9 samples.

Results

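The RBMS family comprises 3 genes, RBMS1, RBMS2 and RBMS3, which encode closely related RNA-binding proteins. They were taken from the 50868 rows of the deposited gene table by gene name, and all 3 were among the 16697 genes with enough reads to be tested. The family was selected because RBMS2 was about 4-fold lower with both HNF4A vectors, so all RBMS2 values are given as a description without a test. That includes the difference between the 2 HNF4A vectors, since a like fall with both was part of the choice. The RBMS1 and RBMS3 values were not used for it.

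RNA was sequenced from xenografts of Huh-7 cells, an established line from a human hepatocellular carcinoma, grown under the skin of NOD/SCID mice, hosts that lack B and T cells but keep macrophages, vessels and fibroblasts. The cells carried no engineered genotype and are labelled WT in every library. When tumours reached about 100 mm3, an adenovirus was injected into them every 4 days over 8 days. The vector carried GFP in the control group (Ad-GFP), HNF4A in the next (Ad-HNF4A) and HNF4A with the K458R substitution in the last (Ad-K458R), with 3 libraries in each group. HNF4A is a nuclear receptor that drives hepatocyte genes. The study asked what the K458R change does to HNF4A in this cancer. Mouse age, the promoter of the vectors and the viral dose are not given in the labels, nor is it stated that each library came from a different mouse. Every p-value therefore measures the spread between these libraries only. Groups were taken from the titles and descriptions: 1 title in the Ad-K458R group has an extra letter, and the treatment field of 4 libraries carries numbers that count upward from the group's name.

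RBMS proteins each hold a pair of RNA recognition motifs (RRMs), folds that bind short single-stranded stretches of RNA or DNA. They are known to bind AU-rich sequences at the 3′ end of messenger RNAs, and several target messages are more stable when bound. RBMS1 was first described as a protein binding single-stranded DNA near the MYC gene, RBMS2 has been reported to stabilise the message of the cell cycle inhibitor CDKN1A, and RBMS3 was described in activated hepatic stellate cells, where it binds PRRX1 message.

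The coding sequences show how alike the members are and why reads can still be assigned to each. The RNP1 stretch of an RRM, the short run that contacts RNA, is shown for both RRMs of each protein, from the GENCODE 29 transcripts. Capitals mark bases that differ from RBMS1, and positions count from the first base of the start codon. In the first RRM, RBMS1 is shown from base 304 to 330, RBMS2 from 286 to 312 and RBMS3 from 301 to 327.
RBMS1 first RRM: tgcaaaggttatggttttgtcgacttt
RBMS2 first RRM: tgTaaaggCtatggCtttgtAgaTttt
RBMS3 first RRM: tgcaaaggttatggttttgtAgaTttt
In the second RRM, RBMS1 is shown from base 538 to 564, RBMS2 from 520 to 546 and RBMS3 from 535 to 561.
RBMS1 second RRM: agtcgtggtgttggctttgctaggatg
RBMS2 second RRM: agCAgAggtgttggctttgcAaggatg
RBMS3 second RRM: agCAgAggtgttggctttgcCagAatg
In both stretches 0 of 9 codons of RBMS2 or RBMS3 encode another amino acid than in RBMS1. The stretches were placed at the longest identical runs of RBMS1 with RBMS3 and of RBMS2 with RBMS3, so likeness was part of the choice. The proteins have 406 codons in RBMS1, 407 in RBMS2 and 437 in RBMS3 in the transcripts compared. Over the aligned coding bases, RBMS1 and RBMS2 were 69.0% identical, RBMS1 and RBMS3 75.3%, and RBMS2 and RBMS3 71.3%. The longest run of identical bases between any pair of the 3 was 21, and no 50-base piece of any member's transcripts occurred in another member. A stretch of that length from 1 member is therefore not found in the others.

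Each parent gene does share sequence with a processed pseudogene. RBMS1P1 (ENSG00000225422, 12:66234079-66235234, minus strand) was 98.4% identical to the RBMS1 coding sequence, with a shared run of 173 bases. RBMS2P1 (ENSG00000213250, 12:94423744-94424969, minus strand) was 98.9% identical to that of RBMS2, with a shared run of 308 bases. Of the 50-base pieces of RBMS1 transcripts, 4.09% (492 of 12029) occurred in RBMS1P1, and of those of RBMS2, 7.33% (670 of 9135) occurred in RBMS2P1. A further 6.04% of the RBMS2 pieces lie on the opposite strand of BAZ2A, whose 3′ end overlaps that of RBMS2. With these and the RBMS2P1 pieces included, 15.5% of RBMS2 pieces occurred in some other gene on either strand. That total was 4.31% for RBMS1 and 8.95% for RBMS3 (1677 of 18735). Of the RBMS3 pieces, 966 occurred in AC098650.1 and 731 on the opposite strand of LUZP2. The sources used here do not say how the authors' counting treated such reads or whether it used strand.

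Libraries held between 15933702 and 23171796 counted reads. On the principal components of log2 CPM (read counts scaled to a common library size), the Ad-GFP libraries lay apart from the other 6 on the first component, and Ad-HNF4A replicate 1 was far from the rest on the next one (46.1, against -11.2 to 4.12 in the other libraries). Hepatocyte and liver cancer markers were present in every library: the 13 listed summed to 36753 to 37958 CPM in the control libraries, to 36476 to 38987 under Ad-HNF4A and to 34709 to 34965 under Ad-K458R, and none was at 0. HNF4A itself stood at 154, 170 and 183 CPM with Ad-GFP, at 3700, 3507 and 5391 with Ad-HNF4A and at 5412, 4999 and 5489 with Ad-K458R, so the vector gene was high in all 6 libraries labelled as carrying it. A gene was called changed when its adjusted p in edgeR's quasi-likelihood test, with Benjamini-Hochberg adjustment over the 16697 tested genes, was under 0.05.

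RBMS2 (ENSG00000076067, 12:56521929-56596196, plus strand) was the family member that differed. It stood at 104, 94.4 and 102 CPM in the 3 Ad-GFP libraries, at 24.6, 27.9 and 23.4 in the Ad-HNF4A libraries and at 24.6, 23.5 and 26.7 in the Ad-K458R libraries. The lowest control library was thus far above the highest library of either HNF4A vector, while the 2 HNF4A vectors overlapped. The group means were 100.1 ± 5.14 CPM with Ad-GFP, 25.3 ± 2.31 with Ad-HNF4A and 24.9 ± 1.61 with Ad-K458R (SD, n = 3 each). The log2 fold change against Ad-GFP was -1.99 with Ad-HNF4A (SE 0.088) and -2.01 with Ad-K458R (SE 0.088), which corresponds to levels 3.96 and 4.02 times lower. Both comparisons use the same 3 control libraries. The counts behind these values were 1735 to 2359 per control library and 392 to 520 per library of the HNF4A vectors, so counting error is small beside the difference.

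RBMS2 levels with the 2 HNF4A vectors were close to each other, as the choice of the gene required. The log2 difference of Ad-K458R from Ad-HNF4A was -0.02 (SE 0.087, 95% interval -0.21 to 0.17), given as a description. Between these 2 vectors only 0.012% of all tested genes were called.

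**Figure D1:**
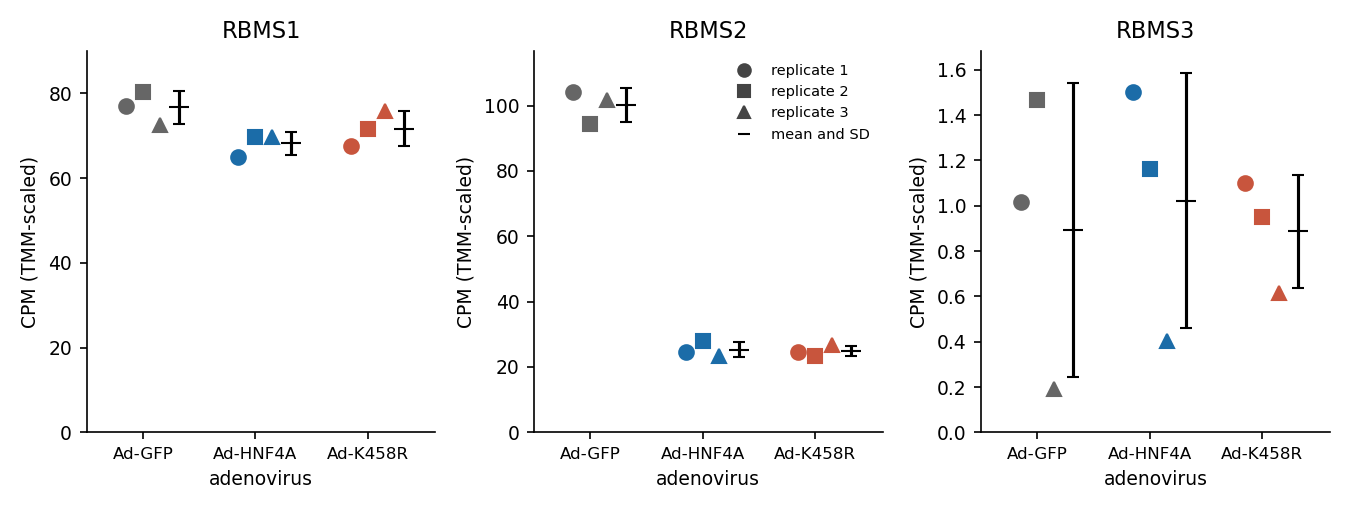
CPM of RBMS1, RBMS2 and RBMS3 in each library (TMM-scaled, linear axes from 0), by adenovirus, with marker shapes for replicate numbers and a bar for the mean and SD of each group. RBMS2 lies at 94.4 to 104 CPM with Ad-GFP and at 23.4 to 27.9 CPM with either HNF4A vector, RBMS1 lies between 65.1 and 80.4 CPM throughout, and RBMS3 does not exceed 1.503 CPM.

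RBMS1 (ENSG00000153250, 2:160272151-160493794, minus strand), which shares its RNA-binding stretches with RBMS2 at the protein level, stayed within a narrow range. Its levels were 77.1, 80.4 and 72.5 CPM with Ad-GFP, 65.1, 69.6 and 69.8 with Ad-HNF4A, and 67.7, 71.6 and 75.7 with Ad-K458R. All 3 Ad-HNF4A libraries were below all 3 control libraries, by a small margin, and the Ad-K458R libraries overlapped both other groups. How many of all tested genes separate by library in this way was not counted, here or for the genes below. The log2 fold change with Ad-HNF4A was -0.17 (SE 0.069, 95% interval -0.32 to -0.02) and did not pass the test (adjusted p = 0.251, edgeR's quasi-likelihood test, and a two-sided exact permutation p of 0.1, the smallest that 3 against 3 libraries can give). With Ad-K458R it was -0.10 (SE 0.069, 95% interval -0.25 to 0.06, adjusted p = 0.605 in the same test). Ad-K458R differed from Ad-HNF4A by 0.07 (SE 0.069, adjusted p = 0.826). The intervals allow at most a fall of 0.32 on the log2 scale for RBMS1, against the fitted difference of about -2 for RBMS2.

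RBMS3 (ENSG00000144642, 3:29280982-30010391, plus strand) was near the limit of detection. It had 23, 27 and 4 reads with Ad-GFP, 24, 20 and 8 with Ad-HNF4A, and 20, 21 and 11 with Ad-K458R, which correspond to 0.193 to 1.503 CPM. Replicate 3 was the lowest library of every group, and the groups overlapped throughout. The log2 fold changes were 0.18 (SE 0.624) with Ad-HNF4A and 0.01 (SE 0.618) with Ad-K458R, and the 95% intervals ran from -1.21 to 1.57 and from -1.37 to 1.39. Neither comparison passed edgeR's quasi-likelihood test (adjusted p = 0.924 and 0.998), nor did that between the vectors (-0.17, SE 0.627, adjusted p = 0.965). Both intervals include a 2-fold change in either direction, so these values do not show whether a change of that size occurred. Fibroblast markers were read on the human genes, although host fibroblasts are mouse cells. They summed to 104 to 106 CPM in the controls, to 98.0 to 119 under Ad-HNF4A and to 92.4 to 108 under Ad-K458R. POSTN was at 0 in the Ad-GFP libraries. In either comparison with Ad-GFP 0 of the 6 tested were called, near the 3.46% and 3.56% called among all tested genes. Log2 fold changes were positive for 4 of the 6 with Ad-HNF4A and 2 with Ad-K458R, highest for COL1A1 (0.61 and 0.72).

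The antisense rows of RBMS3 held almost nothing. RBMS3-AS1 and RBMS3-AS2 had 0 reads in all 9 libraries, and RBMS3-AS3 had 1 read in Ad-GFP replicate 3 and 4 reads in Ad-HNF4A replicate 3. The RBMS3 gene start in the deposited table also lies downstream of the gene start in GENCODE 29, so reads from the most upstream exons may not be in its count.

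By CPM, which is not scaled by gene length, the pseudogenes stood below their parents in every library. In FPKM (fragments scaled by gene length and library size), RBMS1P1 at 4.25 to 5.04 was above RBMS1 at 3.38 to 4.13 in every library. RBMS2P1 was at 5.98 to 7.31 FPKM with Ad-GFP, below RBMS2 at 8.55 to 9.30. With the HNF4A vectors RBMS2P1 was at 4.94 to 6.73 FPKM, above RBMS2 at 2.15 to 2.55. RBMS2P1 stood at 7.51, 7.67 and 9.04 CPM with Ad-GFP, 7.83, 7.08 and 8.22 with Ad-HNF4A, and 6.65, 6.05 and 7.31 with Ad-K458R. It overlapped between Ad-HNF4A and Ad-GFP, with a log2 fold change of -0.07 (SE 0.134, adjusted p = 0.862, edgeR's quasi-likelihood test). The Ad-K458R libraries were all below the control libraries, but the log2 fold change of -0.28 (SE 0.135) did not pass the test (adjusted p = 0.395). RBMS1P1 averaged 5.35 CPM with Ad-GFP, 4.99 with Ad-HNF4A and 5.69 with Ad-K458R and was not called in either comparison. RBMS2 itself averaged 100.1 CPM with Ad-GFP, 25.3 with Ad-HNF4A and 24.9 with Ad-K458R. Whether reads passed between RBMS2 and RBMS2P1 was not tested. RBMS2P1 also lies inside CEP83 on the same strand, so its reads need not come from a pseudogene transcript.

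The lower RBMS2 changed which member led the family. Levels of different genes were compared per length, on the deposited FPKM values (fragments scaled by gene length and library size). RBMS2 averaged 9.02 FPKM with Ad-GFP, 2.31 with Ad-HNF4A and 2.29 with Ad-K458R, RBMS1 averaged 3.92, 3.54 and 3.74, and RBMS3 0.057, 0.066 and 0.057. The summed FPKM of the 3 genes was 13.0 ± 0.244 with Ad-GFP, 5.92 ± 0.275 with Ad-HNF4A and 6.09 ± 0.335 with Ad-K458R (SD, n = 3 each). RBMS2 made up 69.4% ± 2.19 of that sum with Ad-GFP, 39.1% ± 1.95 with Ad-HNF4A and 37.6% ± 1.23 with Ad-K458R. RBMS1 made up 30.2%, 59.8% and 61.4% on average, and RBMS3 at most 1.11%. The ratio of RBMS2 to RBMS1 in FPKM went from 2.31 ± 0.211 in the controls to 0.654 ± 0.058 and 0.614 ± 0.032. These shares follow from the RBMS2 values that selected the family and are no separate result.

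The gene lengths behind the deposited FPKM bear on that order. They were 19302 bases for RBMS1, 10946 for RBMS2 and 15547 for RBMS3, whereas the merged exons of GENCODE 29 span 11765, 8808 and 18339 bases. With counts divided by the GENCODE lengths, the ratio of RBMS2 to RBMS1 was 1.75 ± 0.160 with Ad-GFP, 0.496 ± 0.044 with Ad-HNF4A and 0.465 ± 0.025 with Ad-K458R (SD, n = 3 each). RBMS2 was therefore the higher of the pair in every control library, and RBMS1 in every library with an HNF4A vector, on both lengths. In these bulk samples, fewer cells that express a gene and less RNA per cell cannot be told apart.

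The RBMS2 difference can be placed among those of all genes, as a description, since it is the contrast the gene was selected on. With Ad-HNF4A, 3.46% of tested genes were called, 3.16% as higher and 0.305% (51 genes) as lower, and with Ad-K458R 3.56% were called, 3.32% as higher and 0.234% (39 genes) as lower. The lower calls numbered 14 to 131 and 10 to 50 when 1 library was left out; with Ad-HNF4A each of the 9 libraries moved the count by over 1.5 times, and with Ad-K458R each Ad-GFP and Ad-K458R library did. The median log2 fold change of all tested genes was within 0.01 of 0 in both comparisons. Of all tested genes, 8 had a lower log2 fold change than RBMS2 with Ad-HNF4A and 11 with Ad-K458R. With RBMS2 set aside, called genes that averaged 1 or more in log2 CPM were ranked by log2 fold change. The lowest with Ad-HNF4A were RP11-658F2.8 (-1.10), the heat shock gene HSPA1A (-0.93), SLAIN1 (-0.75) and PIGX (-0.75). Those with Ad-K458R were ARMCX3 (-0.90), the nuclear receptor NR4A2 (-0.80), the transcription factor SP3 (-0.66) and MBOAT4 (-0.51). Of the 13301 genes at that level, called or not, 2 were lower than RBMS2 with Ad-HNF4A, AC087190.3 and AL162581.1, and 1 with Ad-K458R, AL162581.1. These 2 were named after their values were seen, and both vary by more than 10-fold between libraries of 1 group: AL162581.1 had 1445, 100 and 8 reads in the Ad-GFP libraries and AC087190.3 had 24, 612 and 652.

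**Figure D2:**
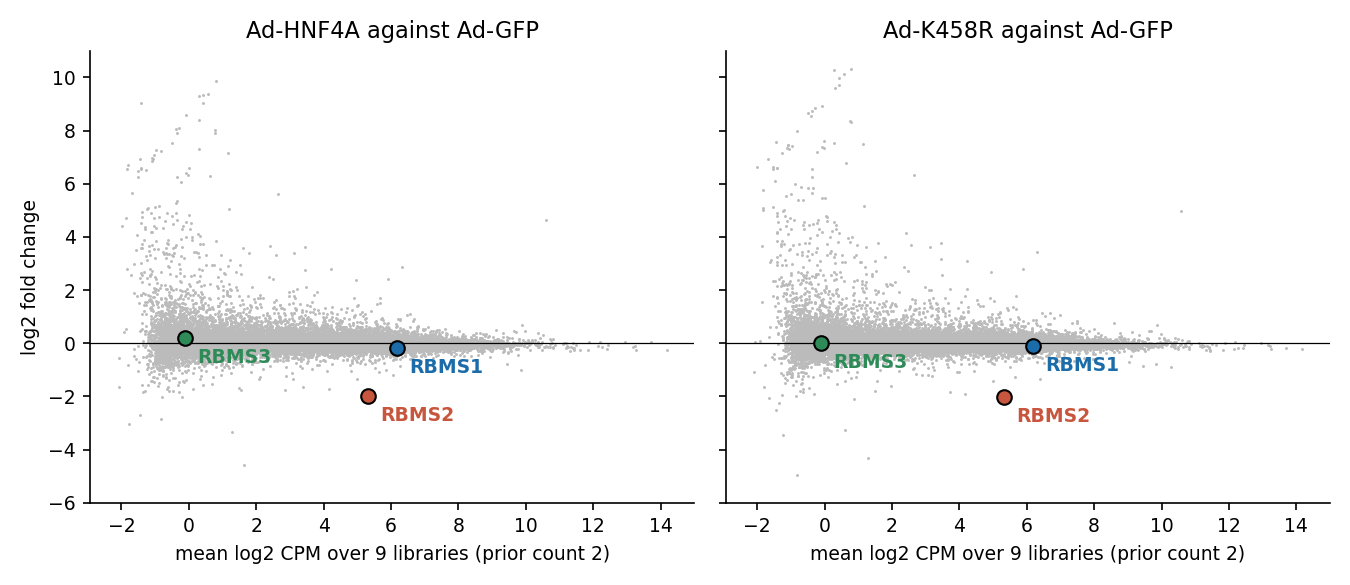
Log2 fold change against Ad-GFP (vertical axis) by mean log2 CPM over the 9 libraries (horizontal axis) for every tested gene in grey, with the 3 family members as coloured points. RBMS2 lies near -2 in both panels, well below the genes of like abundance, while RBMS1 and RBMS3 lie within the band around 0.

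The 10 genes around RBMS2 had log2 fold changes from -0.53 to 1.52 with Ad-HNF4A and from -0.82 to 1.87 with Ad-K458R. Of the 10 nearest tested genes, 0 were called lower in either comparison, which is near the 0.305% and 0.234% called lower among all tested genes and says nothing particular of the neighbours. They had a median log2 fold change of -0.09 with Ad-HNF4A and -0.14 with Ad-K458R. HSPD1P4, a pseudogene whose start lies 10.9 kb upstream, had log2 fold changes of 0.12 (SE 0.176) and 0.04 (SE 0.175). BAZ2A, a chromatin remodelling subunit whose 3′ end overlaps RBMS2 on the opposite strand, had -0.05 (SE 0.071, adjusted p = 0.810) and 0.00186 (SE 0.071, adjusted p = 0.995) in edgeR's quasi-likelihood test. BAZ2A levels were 199 to 216 CPM in the controls, 199.7 to 203 under Ad-HNF4A and 192 to 232 under Ad-K458R.

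The one neighbour called was GLS2, a mitochondrial glutaminase of liver, higher with Ad-K458R, where 3.32% of all tested genes were called higher. It stood at 0.309, 0.816 and 0.387 CPM with Ad-GFP, 1.63, 0.755 and 1.87 with Ad-HNF4A, and 1.81, 1.81 and 1.84 with Ad-K458R, so the Ad-K458R libraries were all above the controls and 1 Ad-HNF4A library was not. The log2 fold change was 1.87 with Ad-K458R (SE 0.412, adjusted p = 0.031, edgeR's quasi-likelihood test) and 1.52 with Ad-HNF4A (SE 0.423, adjusted p = 0.088 in the same test). The difference between the 2 vectors was not called (0.35, SE 0.369, adjusted p = 0.843). With 7 to 15 reads per control library, the Ad-K458R call was lost without Ad-GFP replicate 1 (adjusted p = 0.129), without Ad-GFP replicate 3 (0.116) and without any 1 Ad-K458R library (0.083 to 0.092). With Ad-HNF4A it was gained without Ad-HNF4A replicate 2 (adjusted p = 0.028) and in DESeq2 (0.046). Around RBMS1 and around RBMS3, 0 of the 10 nearest tested genes were called in either comparison. Over all tested genes 3.46% were called with Ad-HNF4A and 3.56% with Ad-K458R, so this says nothing particular of these neighbours. Their start coordinates lie up to 1720 kb from that of RBMS1 and up to 2701 kb from that of RBMS3. The nearest were ITGB6 (-0.13 and 0.07) and TANK (-0.23 and -0.08) for RBMS1, and AZI2 (-0.06 and -0.06) and the TGF-beta receptor TGFBR2 (-0.25 and -0.12) for RBMS3, as log2 fold changes with Ad-HNF4A and Ad-K458R.

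**Figure D3:**
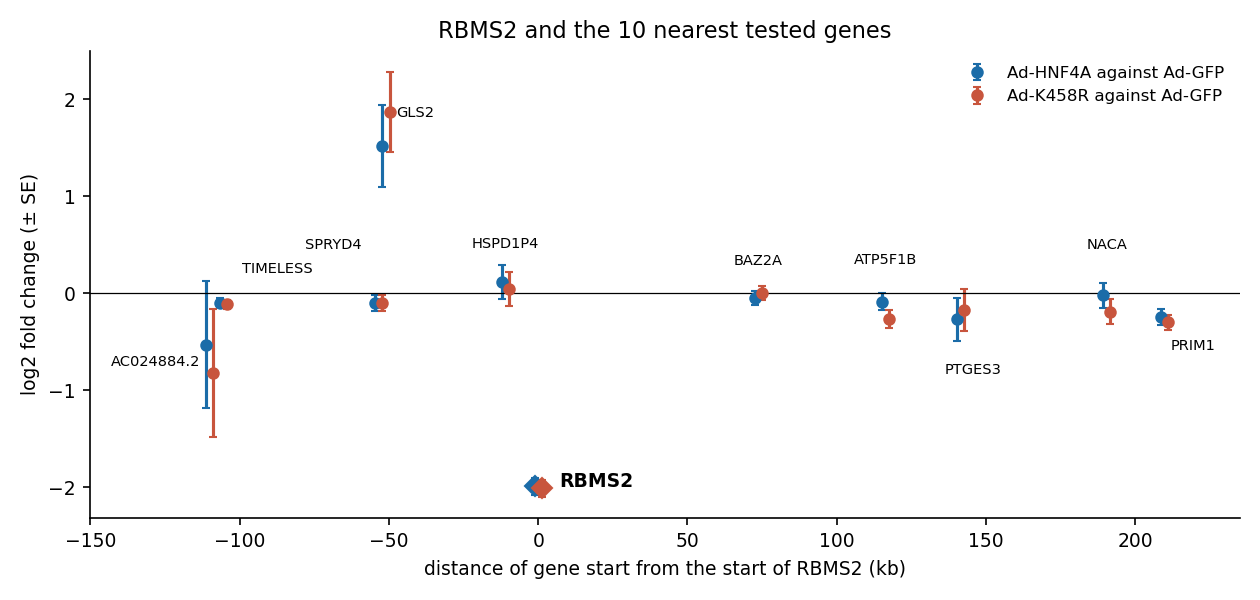
Log2 fold change against Ad-GFP with its SE for RBMS2 (diamonds) and the 10 nearest tested genes (circles), by distance of the gene start from the RBMS2 start in kb, blue for Ad-HNF4A and red for Ad-K458R. RBMS2 lies near -2 with both vectors, while its neighbours lie between -0.82 and 0.12 apart from GLS2 at 1.52 and 1.87.

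The sequence upstream of the members is shown because RBMS2 and RBMS1 differ in it. The windows are the 250 bases before the RefSeq start on build GRCh38.p14, printed in the direction of the gene, with CG dinucleotides in capitals. All 3 members were matched by symbol. For RBMS2 the window is chr12:56521570-56521819 on the plus strand and for RBMS1 chr2:160493808-160494057 on the minus strand.
RBMS2 upstream: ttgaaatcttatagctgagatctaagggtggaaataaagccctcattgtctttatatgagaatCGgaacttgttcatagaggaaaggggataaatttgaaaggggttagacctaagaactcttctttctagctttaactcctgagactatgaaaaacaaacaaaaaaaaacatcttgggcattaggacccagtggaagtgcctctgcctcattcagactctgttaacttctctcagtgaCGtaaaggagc
RBMS1 upstream: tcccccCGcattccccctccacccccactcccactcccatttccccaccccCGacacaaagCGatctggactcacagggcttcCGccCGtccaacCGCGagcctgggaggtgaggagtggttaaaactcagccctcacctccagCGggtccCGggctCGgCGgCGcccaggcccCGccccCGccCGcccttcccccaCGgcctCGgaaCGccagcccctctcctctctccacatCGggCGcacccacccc
The RBMS2 window was 39.2% G or C with 2 CG dinucleotides, that of RBMS1 71.6% with 20, and that of RBMS3 53.2% with 10, against medians of 58.0% and 11 over 35116 RefSeq windows. Of all windows, 11.4% had a lower G and C content than RBMS2. The core letters of the HNF4 motif, CAAAGTCCA or CAAAGTTCA on either strand, occurred in 0.575% of all windows and in none of the 3 members' windows. That says only that these letters are not in these 250 bases.

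The genes whose levels ran most closely with each member differed by member. Only positive correlations were ranked, so genes that ran opposite to a member are not listed. As a description over libraries that share the 3 groups, log2 CPM of RBMS2 was compared with 13300 genes over the 9 libraries. Its highest positive correlations were with SSRP1 (r = 0.941), LINC01139 (0.941), DHX15 (0.940), NREP (0.939) and BAZ1B (0.933). Their own log2 fold changes were small, between -0.33 and -0.07, and only NREP with Ad-K458R was called (-0.29, adjusted p = 0.037, edgeR's quasi-likelihood test), a call that was lost without any 1 library of Ad-GFP or Ad-K458R (adjusted p 0.074 to 0.151). RBMS1 ran most closely with ERRFI1 (r = 0.966), RPRD2 (0.964), LNPK (0.963), EFCAB14 (0.962) and SPTLC1 (0.947), all between -0.25 and -0.06 in log2 fold change. RBMS3 ran most closely with UNG (r = 0.955), AUTS2 (0.912), B3GAT3 (0.898), ADARB1 (0.897) and PYM1 (0.896), over 13301 genes, in which replicate 3 of each group weighs heavily.

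Genes reported as RBMS targets or partners were mostly not called. Of 8 listed, 7 were tested, PRRX1 being too low. With Ad-HNF4A 0 of 7 were called, with a median log2 fold change of -0.09, and with Ad-K458R 1 of 7 was called, as higher, with a median of 0.15. That 1 of 7 stands beside 3.32% called higher among all tested genes.

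AKAP12, a scaffold protein for protein kinase A, was the member called. It stood at 72.3, 75.4 and 101 CPM with Ad-GFP, 116, 117 and 88.0 with Ad-HNF4A, and 168, 148 and 160.3 with Ad-K458R. Every Ad-K458R library was above every other library, and Ad-HNF4A overlapped the controls. AKAP12 rose with Ad-K458R by a log2 fold change of 0.93 (SE 0.147, adjusted p = 0.007, edgeR's quasi-likelihood test), while the 0.36 with Ad-HNF4A (SE 0.147, adjusted p = 0.260) did not pass. The difference between the 2 vectors, 0.57 (SE 0.147), did not pass either (adjusted p = 0.369).

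CDKN1A, the cell cycle inhibitor whose message RBMS2 is reported to stabilise, had higher values with both HNF4A vectors without being called. It stood at 18.9, 16.2 and 17.1 CPM with Ad-GFP, 40.8, 33.6 and 50.4 with Ad-HNF4A, and 44.4, 40.1 and 20.0 with Ad-K458R. Neither group overlapped the controls, although Ad-K458R replicate 3 was close to them. The log2 fold changes of 1.26 with Ad-HNF4A (SE 0.291, adjusted p = 0.067, edgeR's quasi-likelihood test) and 1.003 with Ad-K458R (SE 0.290, adjusted p = 0.149) did not pass the threshold. Both passed in DESeq2 (adjusted p = 4.96e-05 and 0.00273) and in edgeR without Ad-K458R replicate 3 (0.00112 and 0.00137). The other tested targets were MYC (-0.52 with Ad-HNF4A and 0.22 with Ad-K458R on the log2 scale), the apoptosis gene BMF (-0.24 and -0.20), SDCBP (0.01 and 0.15), the cystine transporter SLC7A11 (-0.16 and 0.10) and the DNA polymerase subunit POLA1 (-0.09 and -0.20), none of them called.

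Other proteins that bind the 3′ ends of messages gave few calls, which is near the background of 3.46% called with Ad-HNF4A and 3.56% with Ad-K458R among all tested genes. Of 13 listed proteins that bind AU-rich elements, among them the ELAV and ZFP36 families, 10 were tested and 0 were called in either comparison, with log2 fold changes from -0.21 to 0.29 with Ad-HNF4A and from -0.19 to 0.24 with Ad-K458R. Of 21 others, 19 were tested and 1 was called, MSI1, a regulator of translation known from stem cells. MSI1 rose from 16.8, 13.2 and 16.8 CPM with Ad-GFP to 24.2, 26.4 and 30.6 with Ad-HNF4A and 24.0, 26.7 and 24.3 with Ad-K458R, with no overlap with the controls. Its log2 fold change was 0.79 (SE 0.122, adjusted p = 0.004, edgeR's quasi-likelihood test) and 0.68 (SE 0.122, adjusted p = 0.009). The medians over these 2 lists lay between -0.07 and -0.02, close to the medians of all genes. Between the 2 HNF4A vectors 0 members of any of the RNA-binding lists were called. Over all tested genes 0.012% were called there, so this says nothing particular of the lists.

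**Figure D4:**
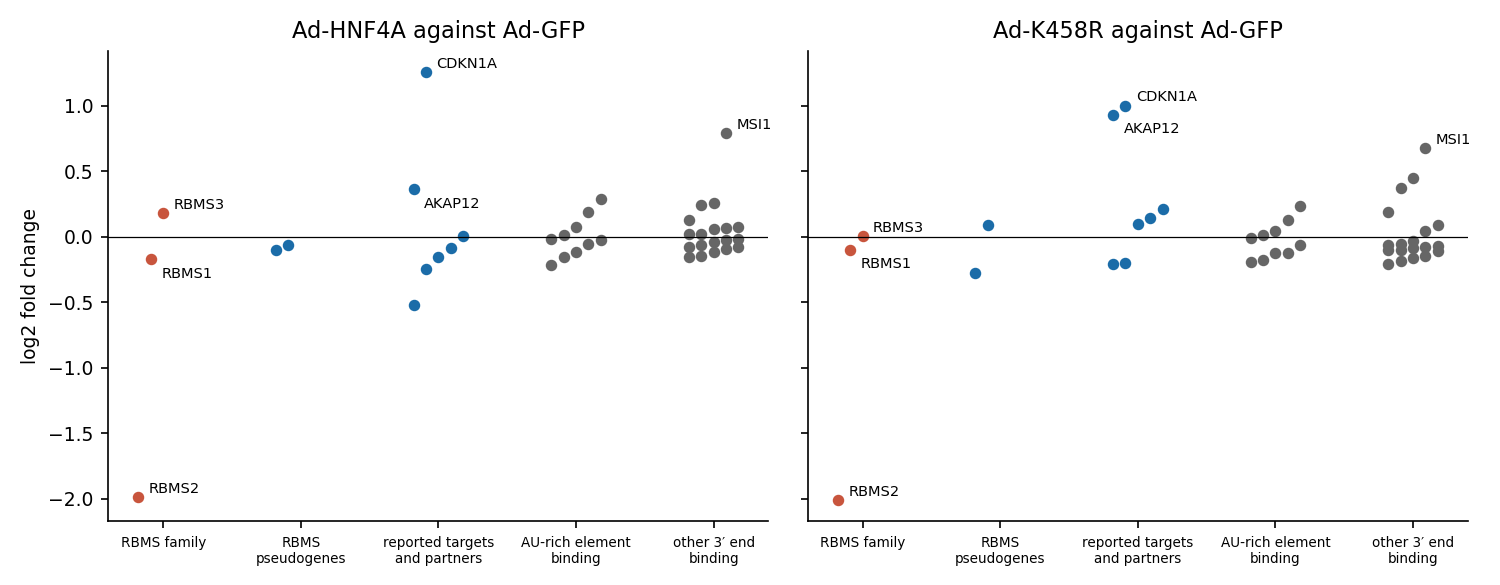
Log2 fold change against Ad-GFP (vertical axis) of each tested member of the RBMS family, its pseudogenes, its reported targets and partners, and proteins that bind AU-rich elements or other 3′ end sequences, 1 point per gene. RBMS2 stands near -2 in both panels, and the genes farthest above 0 are CDKN1A, AKAP12 with Ad-K458R, and MSI1.

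Markers of other cells differed between the groups in part. The macrophages, vessels and fibroblasts of a xenograft are mouse cells, and the sources used here do not say whether mouse reads could be counted to human genes, so these sums need not measure host cells. Macrophage markers summed to 16.8 to 20.5 CPM in the controls, 30.4 to 37.9 under Ad-HNF4A and 39.4 to 42.9 under Ad-K458R. TYROBP was at 0 in the Ad-GFP libraries. With Ad-HNF4A 3 of 7 tested were called higher, beside 3.16% of all tested genes, and with Ad-K458R 4 of 7, beside 3.32%. CSF1R, CTSS and LAPTM5 were called with both vectors. CD68, at a mean of 12.4 CPM in the controls, was called with Ad-K458R only (adjusted p = 0.098 with Ad-HNF4A, edgeR's quasi-likelihood test). CSF1R had 0, 1 and 0 reads with Ad-GFP, 12, 8 and 7 with Ad-HNF4A, and 14, 11 and 11 with Ad-K458R. LAPTM5 had 2, 2 and 2, then 12, 20 and 18, then 17, 27 and 21, in the same order. Endothelial markers summed to 38.8 to 42.0, 48.1 to 58.8 and 41.4 to 48.0 CPM in the same order. KDR was at 0 in every group and TEK at 0 with Ad-HNF4A. Of 5 listed, 2 were tested, and VWF was called higher with both vectors. VWF had 8, 5 and 10 reads with Ad-GFP, 10, 28 and 39 with Ad-HNF4A, and 46, 59 and 27 with Ad-K458R. Its adjusted p in edgeR's quasi-likelihood test was 0.0495 with Ad-HNF4A and 0.00736 with Ad-K458R. These VWF calls were not checked under the alternatives. Of the 13 hepatocyte and liver cancer markers summed above, 2 were called higher with Ad-HNF4A. They were APOA1 (log2 fold change 0.46, adjusted p = 0.009, edgeR's quasi-likelihood test) and APOA2 (0.25, adjusted p = 0.044). With Ad-K458R, APOA1 was called higher (0.34, adjusted p = 0.047) and GPC3 lower (-0.30, adjusted p = 0.019). Among all tested genes 0.234% were called lower with Ad-K458R. These marker calls were not checked under the alternatives. The part of these differences in the RBMS2 values was not tested.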

How the data were processed

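Messenger RNA was enriched with oligo(dT), per the labels' protocols. The authors deposited 1 table with whole-number read counts and FPKM per gene for the 9 libraries. Per the submitters' processing notes, reads were trimmed with Trimmomatic. Those notes name the mouse build mm10, whereas the rows are human genes. The sources used here do not name the aligner, counter, strand setting or annotation. Counts were fitted in R 4.3.3 with edgeR 4.0.16 (TMM scaling, filterByExpr, robust quasi-likelihood, 9 libraries in 1 fit). P-values were adjusted by Benjamini-Hochberg over 16697 genes, and calls used 0.05. CPM are TMM-scaled. The procedure was tested on simulated data. Coding sequences were aligned with Biopython 1.88. Alternatives were DESeq2 1.42.0, limma 3.58.1 (voom, and log2 of FPKM plus 1), other scalings and filters, 6-library fits, a replicate block and leaving out each library. Coordinates are those of the deposited table, whose build those sources do not name.

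The family members, gene lists and tests were chosen with earlier results of these data known. Named genes were HNF4A, the family and its antisense and pseudogene rows, and the nearest and any called neighbours. Of each list, every called member and the 4 tested members with the smallest p were named. So were the 5 genes with the highest positive correlation with each member. The 5 called genes with the lowest fold change in each comparison, counting RBMS2, were named too. RBMS2P1 and the alternatives for AKAP12, CDKN1A, GLS2, HNF4A, MSI1, NREP and both pseudogenes were added after the data were seen.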

Additional observations from a re-analysis of the deposited data

How the results depend on the processing

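RBMS1 was not called under any of the 19 alternatives in any of the 3 comparisons (adjusted p 0.229 to 0.501 with Ad-HNF4A, 0.529 to 0.873 with Ad-K458R and 0.715 to 0.974 between the vectors). The RBMS2 log2 fold change was -1.60 with Ad-HNF4A and -1.61 with Ad-K458R on log2(FPKM + 1), a scale that shrinks the change of low genes, and -2.06 to -1.93 and -2.06 to -1.97 when 1 library was left out. Between the vectors, as a description, leaving out 1 library gave -0.074 to 0.055 for RBMS2, above 0 without Ad-HNF4A replicate 2 (0.055) and without Ad-K458R replicate 2 (0.024). The few RBMS3 reads gave no settled sign. With Ad-HNF4A, leaving out 1 library gave -0.296 to 0.704, below 0 without Ad-GFP replicate 3 (-0.296) and without Ad-HNF4A replicate 1 (-0.202). With Ad-K458R, RBMS3 was at -0.00498 in DESeq2 and at -0.471 to 0.528 when 1 library was left out, below 0 without Ad-GFP replicate 3 (-0.471), Ad-K458R replicate 1 (-0.166) and Ad-K458R replicate 2 (-0.046). Between the vectors RBMS3 was at 0.00895 in limma-voom and at -0.576 to 0.209 when 1 library was left out, above 0 without Ad-HNF4A replicate 1 (0.209) and Ad-K458R replicate 3 (0.023). RBMS2P1 with Ad-HNF4A ranged from -0.117 to 0.022 when 1 library was left out, above 0 without Ad-GFP replicate 3, and CDKN1A between the vectors from -0.465 to 0.023, above 0 without Ad-K458R replicate 3. No alternative ended the calls of AKAP12 with Ad-K458R or of MSI1 with either vector, and DESeq2 called the AKAP12 difference between the vectors (adjusted p = 0.045). The NREP call was lost in every fit without an Ad-GFP or Ad-K458R library (adjusted p 0.074 to 0.151).

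Counts over all genes moved more. Genes called with Ad-HNF4A numbered 578, and 351 in the 6-library fit, with 344 to 756 when 1 library was left out. Those called lower numbered 51, and 130 in DESeq2, 18 on log2(FPKM + 1), 81 without a filter and 18 in the 6-library fit, with 14 to 131 when 1 library was left out. With Ad-K458R, 594 genes were called, 391 to 641 when 1 library was left out, and 39 called lower became 87 in DESeq2, 15 on log2(FPKM + 1) and 20 with library totals only, with 10 to 50 when 1 library was left out. Between the vectors, the 2 called genes became 59 in DESeq2, 4 on log2(FPKM + 1), 9 without a filter and 9 in the 6-library fit, with 3 to 12 when 1 library was left out. Taken over all tested genes, deviations of same-numbered libraries correlated at -0.038 to 0.053, with 0 of 9 pairs over 0.1. These values do not show whether replicate number mattered for single genes. RBMS3, for example, was lowest in replicate 3 of every group. With the replicate number as a block, 22 genes were called lower with Ad-HNF4A and 15 with Ad-K458R, and the GLS2 and NREP calls with Ad-K458R had an adjusted p of 0.076. Among the 3 members, only RBMS3 had few reads, 4 to 27 per library.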
